A study of Mus musculus with 18 samples.

Results

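The 43 genes described here concern the 2 cell types that build brain blood vessels, and were followed in embryonic cortex. Grouped as endothelial were 31 genes, of the cells that line the vessel or of signals that act on them. These 31 include 5 ligand genes, *Angpt1* among them, and which cells made the ligands was not tested. The other 12 are genes of mural cells, the pericytes and smooth muscle cells that wrap the vessel. The genes were chosen by name from knowledge of these cell types, with earlier results of these data known. All 43 were found among the 23038 gene symbols with counts. Messenger RNA was measured by RNA-seq of total RNA depleted of ribosomal RNA, in E18.5 cortex of 12 mice on a CD1 background. The 4 groups of 3 were *Nova2-/-* mice, their wild-type littermates (mice 1 to 3), *Nova1-/-* mice, and their wild-type littermates (mice 4 to 6). The labels number the wild-type mice without naming litters, and how they were assigned is given with the processing. Both knockouts are germline, so the vessels carry the same genotype as the neurons. NOVA1 and NOVA2 are neuronal RNA-binding proteins that control alternative splicing, and the *Nova2* allele carries an IRES-Cre cassette at its first known coding exon. The design asks how these genes changed with each knockout against its own littermates, and whether the 2 changes differed.

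Brain capillaries are tubes of endothelial cells sealed by tight junctions and covered closely by pericytes. Vascular endothelial growth factor acts through the receptors KDR and FLT1, angiopoietins act through TEK, and PDGFB released by the endothelium holds pericytes through their receptor PDGFRB. Before birth these vessels already form a blood-brain barrier, in which glucose enters through SLC2A1 (GLUT1), lipids enter through MFSD2A, and drugs are pumped back to the blood by ABCB1A. In a dissected piece of cortex, fewer cells of a type and less RNA per cell cannot be told apart, and any meninges left on the surface bring their own vessels.

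The sequences before the start of 4 members are shown because these 4 passed the test in *Nova2-/-* cortex: *Kdr* (chromosome 5, 75932827 to 75979072), *Slc2a1* (chromosome 4, 119108745 to 119137330), *Abcc9* (chromosome 6, 142587862 to 142702766) and *Enpep* (chromosome 3, 129269177 to 129332749), with gene spans from RefSeq on GRCm38.p6, counted from 1. They lie on 4 different chromosomes. The 250 bases before the transcript start given by the RefSeq promoter table were read 5′ to 3′ for each, at chr5:75978456-75978705 on the minus strand for *Kdr*, chr4:119108495-119108744 on the plus strand for *Slc2a1*, chr6:142702275-142702524 on the minus strand for *Abcc9* and chr3:129332750-129332999 on the minus strand for *Enpep*. The starts used for *Kdr* and *Abcc9* lie inside the span of the gene. Capitals mark matches on either strand to CAGGAA or CCGGAA, core letters bound by ETS factors such as ERG, FLI1 and ETS1, to ACAAT, bound by SOX factors, or to ACGTG, the core of hypoxia-response elements.

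*Kdr*: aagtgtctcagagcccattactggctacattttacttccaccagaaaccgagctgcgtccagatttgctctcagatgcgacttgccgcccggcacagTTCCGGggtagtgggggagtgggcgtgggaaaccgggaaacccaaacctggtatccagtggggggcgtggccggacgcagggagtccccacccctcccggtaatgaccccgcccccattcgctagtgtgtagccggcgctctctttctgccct
*Slc2a1*: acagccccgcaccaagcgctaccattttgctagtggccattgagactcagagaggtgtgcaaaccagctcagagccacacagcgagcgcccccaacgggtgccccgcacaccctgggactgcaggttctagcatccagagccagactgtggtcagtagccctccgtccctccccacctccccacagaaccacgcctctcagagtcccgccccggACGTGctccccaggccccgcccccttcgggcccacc
*Abcc9*: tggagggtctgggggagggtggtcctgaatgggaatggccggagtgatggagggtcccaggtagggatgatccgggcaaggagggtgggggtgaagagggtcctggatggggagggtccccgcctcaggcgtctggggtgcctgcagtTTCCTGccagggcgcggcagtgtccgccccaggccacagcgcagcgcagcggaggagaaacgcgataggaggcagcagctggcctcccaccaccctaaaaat
*Enpep*: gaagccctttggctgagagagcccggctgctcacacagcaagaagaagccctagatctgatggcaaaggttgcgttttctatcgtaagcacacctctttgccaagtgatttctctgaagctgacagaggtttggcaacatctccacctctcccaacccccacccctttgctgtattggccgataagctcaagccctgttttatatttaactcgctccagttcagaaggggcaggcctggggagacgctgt

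The 4 windows differed in the motifs they held. *Kdr* had 1 match to CCGGAA, read as TTCCGG, *Abcc9* had 1 match to CAGGAA, read as TTCCTG, *Slc2a1* had 1 match to ACGTG, and *Enpep* had none of the 4 motifs. Among the 31 windows of the 26 members in the table, 10 held CAGGAA, 2 held CCGGAA, 7 held ACAAT and 3 held ACGTG. The shares over all 32851 windows of the table were 25.7%, 12%, 27.7% and 16.6%, against 32.3%, 6.45%, 22.6% and 9.68% of the members' windows. Several members have more than 1 window, so windows of a gene are not independent, and a match of letters is no evidence of binding.

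The depth of sequencing was between 16518172 and 31362018 expected counts per mouse, and a member held between 9 and 5024 counts in a mouse. Levels are given as CPM, counts per 1000000 counts of the mouse after TMM scaling over the 12 mice. The *Nova1* transcript was nearly absent in *Nova1-/-* cortex, at 0.112, 0.0341 and 0.211 CPM. The *Nova2* transcript was at 17.0, 18.0 and 21.5 CPM in *Nova2-/-* mice against 31.5, 31.04 and 40.9 CPM in their littermates, so RNA of the targeted locus was still counted. The 8 neuronal markers checked summed to between 3339 and 4102 CPM in each mouse. Wild-type mice 1 and 2 stood apart from the other 10 in 19 meningeal markers, whose sum was 314 and 385 CPM in them, 822 CPM in wild-type mouse 3 and between 1029 and 1522 CPM in the other 9 mice. Wild-type mouse 2 also had counts in 21791 genes, against 18397 to 19396 in the other mice. Results that rest on these mice are given with and without them.

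In wild-type cortex the members covered a 71.1-fold range of levels per kilobase of exon, from 21.5 ± 8.83 CPM per kb for *Vtn* to 0.302 ± 0.151 CPM per kb for *Myh11* (SD, n = 6 wild-type mice). *Vtn* encodes vitronectin, which pericytes secrete. It was followed by *Cldn5*, the main claudin of endothelial tight junctions, at 20.9 ± 2.84 CPM per kb, *Tjp1*, the junction scaffold ZO-1, at 19.2 ± 3.41 CPM per kb, *Mfsd2a* at 16.4 ± 1.34 CPM per kb and *Slc2a1* at 14.5 ± 2.61 CPM per kb. *Tjp1* is also made by many cells other than endothelium. In the order of levels, 40 of 42 neighbouring pairs overlapped in their range over the 6 mice, and the 2 pairs that did not overlap were *Slc2a1* with *Rgs5* and *Rgs5* with *Kdr*. The lowest levels were those of *Myh11* and the pericyte transcription factor gene *Foxs1*, at 0.477 ± 0.0550 CPM per kb.

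**Figure D1:**
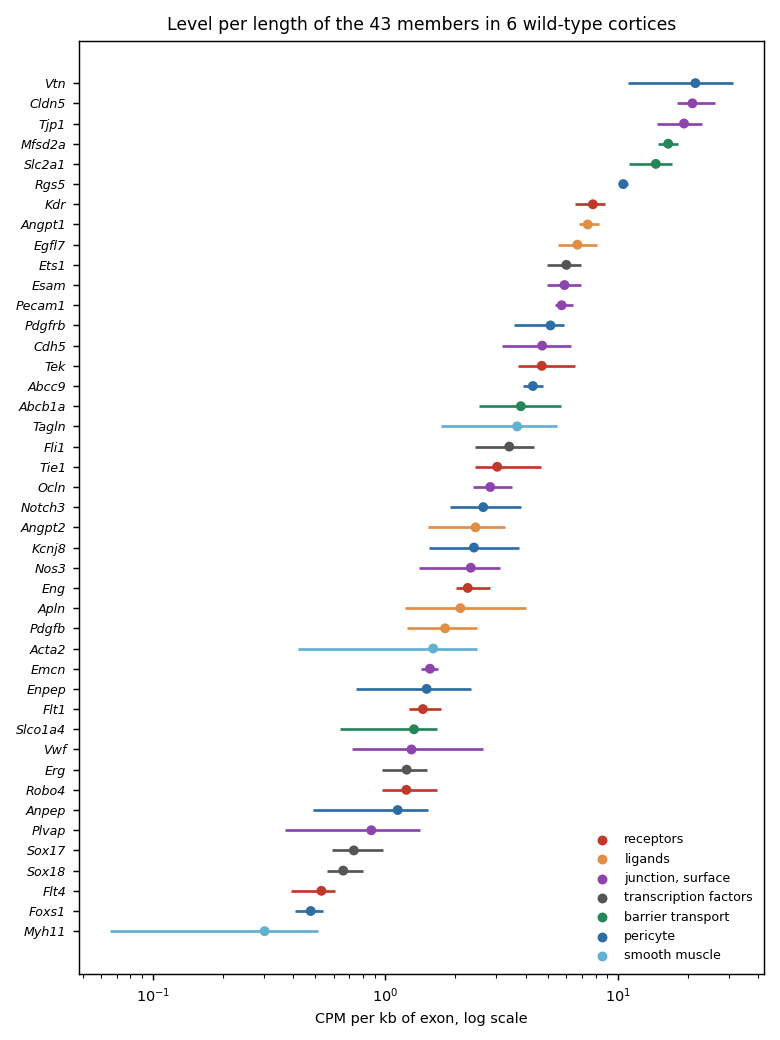
Level of each of the 43 members in 6 wild-type cortices, in CPM per kilobase of exon on a log scale, ordered by mean. Points are means and lines span the lowest to the highest mouse, coloured by role. *Vtn*, *Cldn5* and *Tjp1* lead the order and *Myh11* has the lowest mean.

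In *Nova2-/-* cortex, 36 of the 43 members had a higher mean than in wild-type littermates by the fitted log2 fold change, against 51.8% of all genes. A member was called changed at an FDR below 0.05, where FDR is the p-value of edgeR's quasi-likelihood test after Benjamini-Hochberg adjustment over all genes tested. By this test 4 members rose, *Kdr*, *Slc2a1*, *Abcc9* and *Enpep*, and 0 fell. Over all 15691 genes tested, 0.695% were called higher and 0.363% lower. At an unadjusted p below 0.05 there were 13 members higher and 2 lower, against 10.1% and 9.06% of all genes. The 3 knockout mice lay above the 3 littermates for 15 members and below them for 2, against 13.0% and 12.8% of all genes. The median log2 fold change was 0.23 over the 31 endothelial members and 0.71 over the 12 mural members, beside 0.0092 over all genes tested. With DESeq2 in place of edgeR, 9 members were called, all higher: these 4 and *Angpt2*, *Flt1*, *Notch3*, *Pdgfrb* and *Vtn*. DESeq2 called 3.42% of all genes higher and 2.56% lower. The members were not tested as a list.

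In *Nova1-/-* cortex 0 of 43 members passed edgeR's test, where 0.00629% of 15901 genes were called in each direction. At an unadjusted p below 0.05, 1 member, *Slc2a1*, was higher and 8 were lower, namely *Kdr*, *Egfl7*, *Emcn*, *Nos3*, *Fli1*, *Ets1*, *Vtn* and *Enpep*, against 3.77% and 3.67% of all genes. The groups did not overlap for 9 members, all lower in the knockout, and for none in the other direction, against 6.61% and 6.80% of all genes. The median was -0.096 for endothelial and -0.12 for mural members, beside 0.0018 over all genes. A log2 fold change below 0 was found for 29 of 43 members and above 0 for 14, where 50.6% of all genes were above 0. DESeq2 called 1 member, *Kdr*, which was lower, against 0.135% of all genes higher and 0.0834% lower.

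**Figure D2:**
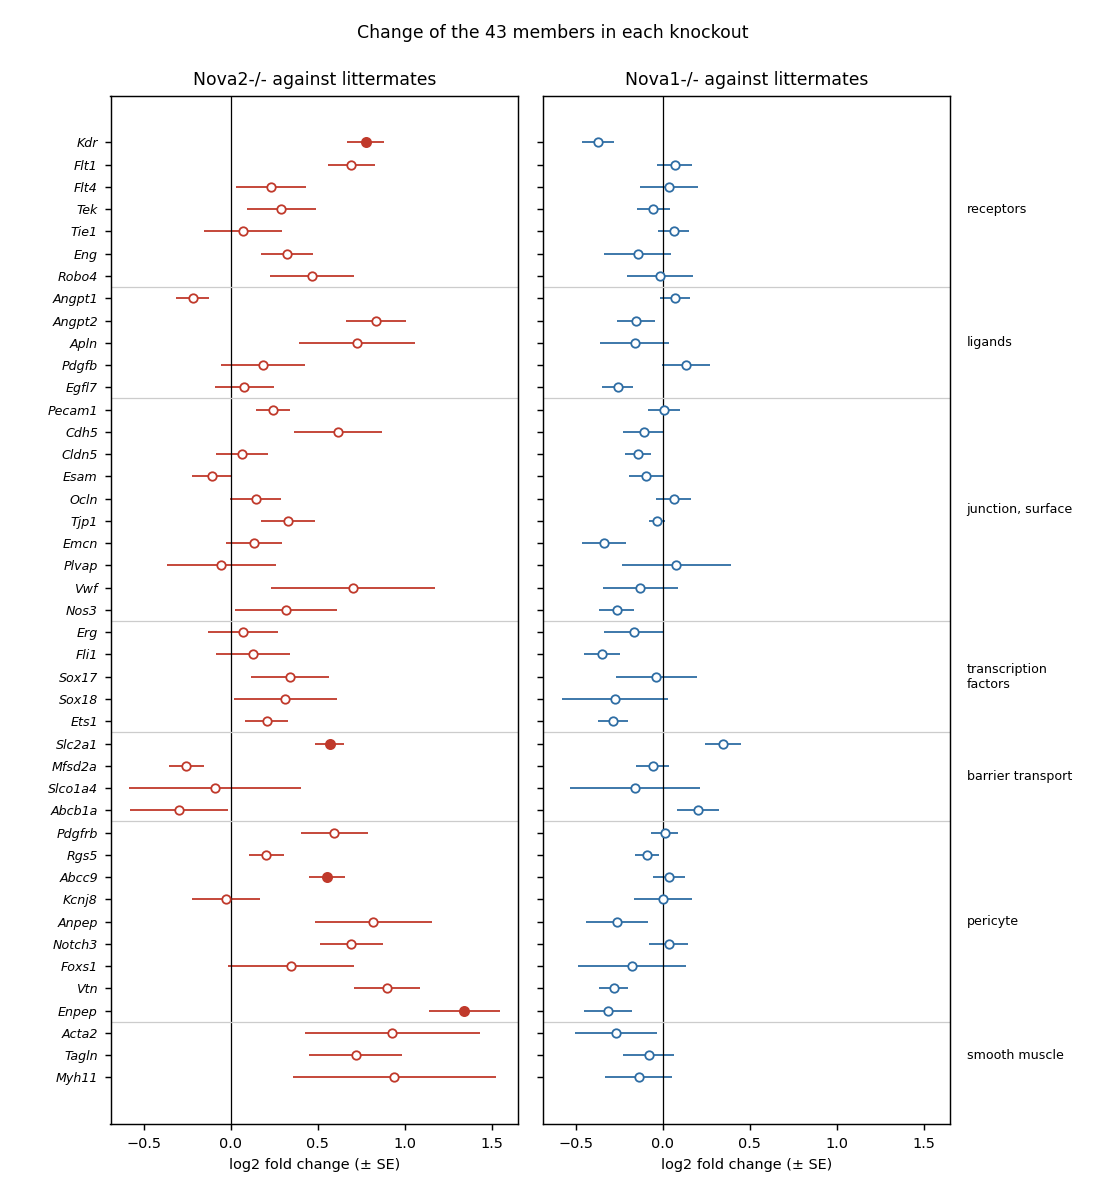
Log2 fold change of each member against wild-type littermates in *Nova2-/-* (left) and *Nova1-/-* (right) cortex, with lines for ± SE from the edgeR fit (3 mice per group). Filled points have an FDR below 0.05. The 4 filled points are *Kdr*, *Slc2a1*, *Abcc9* and *Enpep* in *Nova2-/-*, and no point is filled for *Nova1-/-*.

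The receptor genes were led by *Kdr*, which encodes the main signalling receptor for vascular endothelial growth factor. *Kdr* was at 50.3, 47.7 and 57.5 CPM in wild-type mice 1 to 3 and at 84.4, 82.5 and 99.1 CPM in the *Nova2-/-* mice. Every knockout mouse was above every littermate, and also above the 6 mice of the *Nova1* litters. The log2 fold change was 0.78 ± 0.11 (SE, n = 3 per group), a 1.71-fold higher level, with an edgeR FDR of 0.0239. In the *Nova1* litters *Kdr* was at 61.5, 59.7 and 63.6 CPM in wild-type mice 4 to 6 and 54.6, 47.1 and 41.1 CPM in *Nova1-/-* mice. Here the knockout mice were the lower group, without overlap, with a log2 fold change of -0.37 ± 0.090 and an edgeR FDR of 0.422.

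*Flt1*, the decoy and signalling receptor for the same growth factor, was at 18.7, 20.02 and 17.3 CPM in littermates and 28.4, 26.4 and 35.4 CPM in *Nova2-/-* mice. The groups were apart, and the log2 fold change of 0.69 ± 0.13 narrowly missed the threshold with an edgeR FDR of 0.0567. The remaining receptors were *Flt4*, *Tek*, *Tie1*, the TGF-beta co-receptor *Eng* and *Robo4*. Their log2 fold changes in *Nova2-/-* cortex ran from 0.07 for *Tie1* to 0.47 for *Robo4*, and none passed. *Tek* and *Tie1*, the angiopoietin receptor and its partner, were highest among the littermates in wild-type mouse 3, at 30.8 against 19.1 and 17.4 CPM for *Tek* and at 22.9 against 13.3 and 11.97 CPM for *Tie1*. The knockout mice lay between these values for both genes. In *Nova1-/-* cortex the 6 receptors other than *Kdr* had log2 fold changes between -0.15 and 0.07.

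Among the ligands, *Angpt2*, which endothelial cells at sprouting tips release to loosen vessels, was at 5.64, 6.75 and 8.68 CPM in littermates and 12.7, 13.3 and 11.6 CPM in *Nova2-/-* mice. The groups were apart and the log2 fold change was 0.84 ± 0.17, with an edgeR FDR of 0.0679. The wild-type mice of the *Nova1* litters were at 12.1, 11.03 and 9.79 CPM, which overlaps the *Nova2-/-* mice. *Angpt1*, the opposing ligand that stabilises vessels and the ligand gene with the highest level per length, was at 35.2, 30.6 and 31.6 CPM in littermates and 27.8, 29.8 and 25.99 CPM in *Nova2-/-* mice. It was 1 of 2 members for which the knockout mice lay wholly below, with a log2 fold change of -0.22 ± 0.094 and an edgeR FDR of 0.255. *Apln*, which encodes the sprouting-vessel peptide apelin, was at 12.7, 9.89 and 4.26 CPM in littermates and 12.5, 15.1 and 16.4 CPM in *Nova2-/-* mice. These overlap through wild-type mouse 1. All 6 mice of the *Nova1* litters were between 2.66 and 4.82 CPM, so wild-type mouse 3 was with them and wild-type mice 1 and 2 were not. *Pdgfb* and *Egfl7* had log2 fold changes of 0.18 and 0.08 in *Nova2-/-* cortex.

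The junction and surface genes were mixed. *Pecam1*, the adhesion molecule CD31, was at 23.2, 26.2 and 24.9 CPM in littermates and 27.5, 29.8 and 30.5 CPM in *Nova2-/-* mice, apart but by little, with a log2 fold change of 0.24 ± 0.096 and an edgeR FDR of 0.222. *Cdh5*, the adherens junction protein VE-cadherin, was at 12.6, 14.1 and 24.9 CPM in littermates and 30.3, 28.3 and 21.0 CPM in *Nova2-/-* mice. Wild-type mouse 3 lay above the lowest knockout mouse, and the log2 fold change was 0.62 ± 0.25 with an edgeR FDR of 0.237. *Cldn5* was at 25.3, 26.7 and 36.9 CPM in littermates and 31.99, 33.2 and 27.9 CPM in *Nova2-/-* mice, and its log2 fold change was 0.07 ± 0.15 with an edgeR FDR of 0.849. For *Cldn5*, the highest mouse of all 12 was wild-type mouse 3. The other 7 genes of this role, *Esam*, *Ocln*, *Tjp1*, *Emcn*, *Plvap*, *Vwf* and *Nos3*, had log2 fold changes from -0.11 for *Esam* to 0.70 for *Vwf*, and none passed. *Vwf*, the clotting factor stored by endothelium, was at 14.4, 11.5 and 42.1 CPM in littermates, highest in wild-type mouse 3. Of the *Nos3* exon bases, 25.2% overlap an antisense transcript, *Gm15587*, and the library kit does not keep strand, so reads of the pair cannot be told apart.

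The 5 endothelial transcription factor genes all had log2 fold changes above 0 in *Nova2-/-* cortex, from 0.07 for *Erg* to 0.34 for *Sox17*, and all below 0 in *Nova1-/-* cortex, from -0.35 for *Fli1* to -0.04 for *Sox17*. None passed the test in either. In *Nova2-/-* cortex the sign turned for *Fli1* without wild-type mouse 1, and for *Erg* without wild-type mouse 2 or without *Nova2-/-* mouse 3. *Ets1*, the gene of this role with the highest level per length, was at 35.8, 31.7 and 44.5 CPM in wild-type mice 1 to 3 and 42.8, 43.5 and 42.97 CPM in *Nova2-/-* mice, with a log2 fold change of 0.21 ± 0.12 and an edgeR FDR of 0.396. In the *Nova1* litters *Ets1* was at 41.1, 37.0 and 40.7 CPM in wild-type and 36.5, 30.6 and 30.4 CPM in knockout mice, apart and lower, with a log2 fold change of -0.29 ± 0.086 and an edgeR FDR of 0.506. *Erg* and *Fli1* are also made by blood and immune cells.

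The barrier transport genes were led by the glucose transporter. *Slc2a1* was at 48.6, 48.3 and 47.0 CPM in littermates and 69.3, 67.0 and 76.7 CPM in *Nova2-/-* mice, the smallest spread among littermates of the members called. The groups were far apart, with a log2 fold change of 0.57 ± 0.084, a 1.48-fold higher level, and an edgeR FDR of 0.0321. In the *Nova1* litters it was at 35.1, 38.1 and 31.7 CPM in wild-type and 37.7, 49.6 and 46.0 CPM in *Nova1-/-* mice, with a log2 fold change of 0.35 ± 0.10 and an edgeR FDR of 0.505. The fitted change of *Slc2a1* was above 0 in both knockouts, and the difference between the 2 changes was 0.21 ± 0.14 with an edgeR FDR of 0.470.

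*Mfsd2a*, which carries lysolipids into the brain and restrains vesicle traffic across the endothelium, was at 37.5, 40.0 and 40.7 CPM in littermates and 29.6, 36.2 and 33.02 CPM in *Nova2-/-* mice. All 3 knockout mice were lower, with a log2 fold change of -0.26 ± 0.10 and an edgeR FDR of 0.224. *Abcb1a*, the drug efflux pump P-glycoprotein, was at 14.8, 13.9 and 31.1 CPM in littermates and 17.0, 15.8 and 15.96 CPM in *Nova2-/-* mice, so that its direction turned on wild-type mouse 3: the log2 fold change was -0.30 with this mouse and 0.18 without it. The organic anion transporter gene *Slco1a4* was lowest in 3 mice of 3 groups, at 1.39 CPM in *Nova2-/-* mouse 2, 1.94 CPM in *Nova1-/-* mouse 2 and 2.45 CPM in wild-type mouse 4, against 3.97 to 7.39 CPM in the other 9. The same 3 mice had the lowest sums of 10 choroid plexus markers, at 215, 222 and 372 CPM against 912 to 1699 CPM elsewhere, and the part of choroid plexus in the level of *Slco1a4* was not tested. *Abcb1a* and *Slco1a4* have close paralogs with which reads may be shared.

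**Figure D3:**
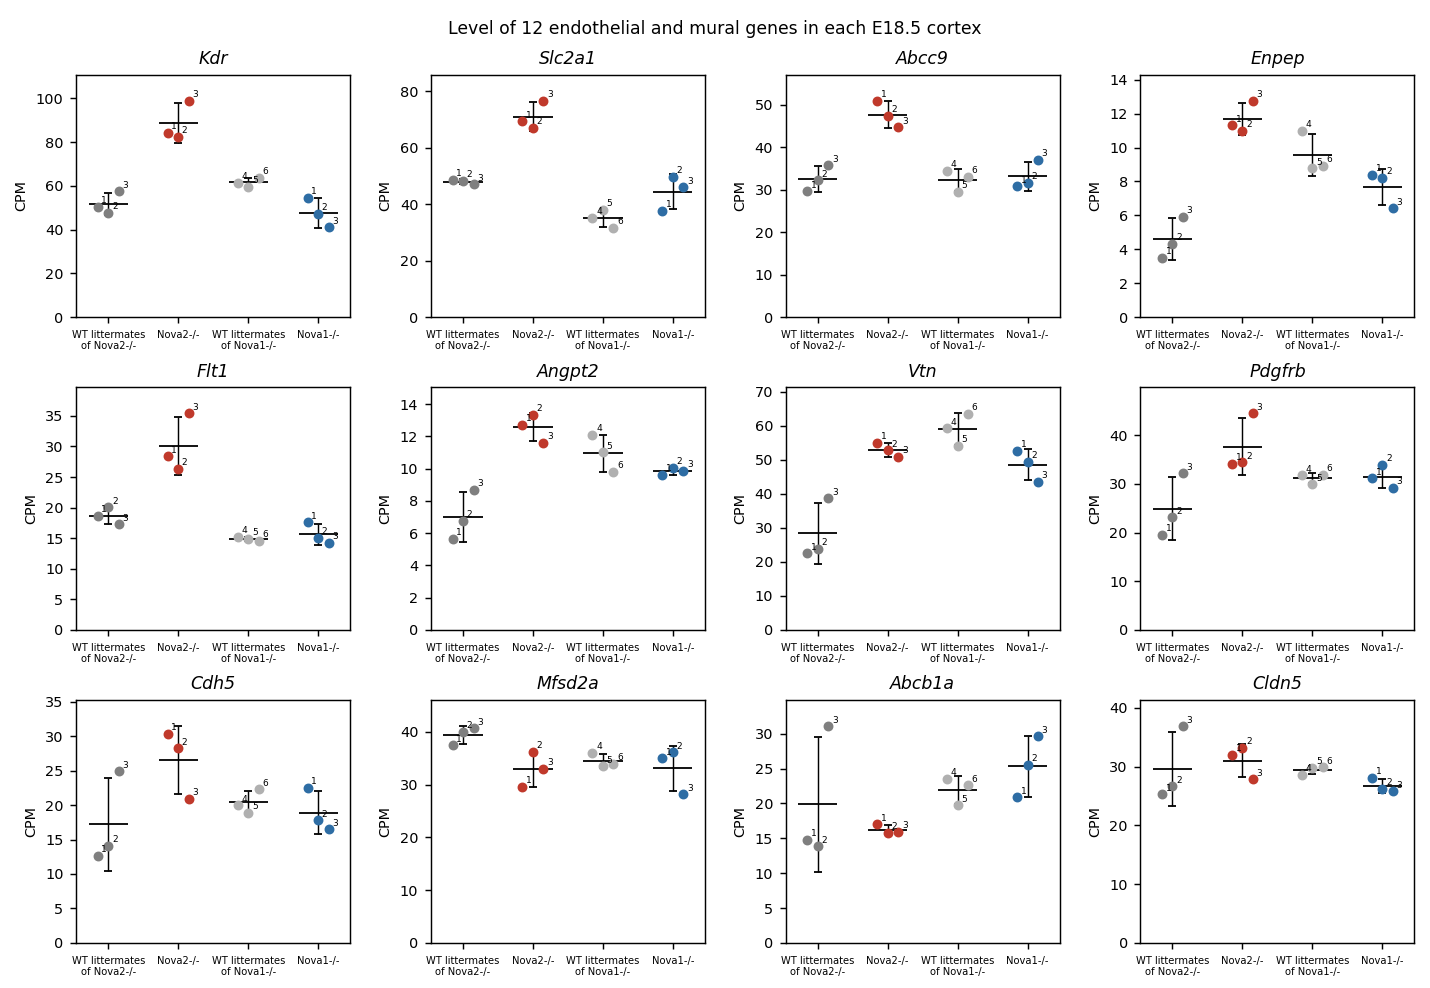
Level (CPM) of 12 members in each of the 12 mice, numbered as in the text; horizontal lines are means and bars are SD (n = 3). For *Kdr*, *Slc2a1*, *Abcc9* and *Enpep* the 3 *Nova2-/-* mice lie above all 9 other mice, while for *Cdh5*, *Abcb1a* and *Cldn5* wild-type mouse 3 lies above its littermates and within or above the *Nova2-/-* range.

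Pericyte genes held the largest change. *Enpep*, which encodes aminopeptidase A, an angiotensin-cleaving enzyme on the pericyte surface, was at 3.51, 4.32 and 5.93 CPM in littermates and 11.3, 11.003 and 12.8 CPM in *Nova2-/-* mice. The knockout mice were all above the littermates, with a log2 fold change of 1.34 ± 0.20, a 2.54-fold higher level, and an edgeR FDR of 0.0325. *Enpep* was the only member that also reached a log2 fold change of 1 in size. Its wild-type level differed between litters, however, and wild-type mice 4 to 6 were at 10.99, 8.77 and 8.93 CPM. These lie close under the *Nova2-/-* mice, and wild-type mouse 4 was almost level with the lowest of them.

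*Abcc9* and *Kcnj8* encode the regulatory and pore subunits of the potassium channel of pericytes and lie near each other on chromosome 6, *Kcnj8* at 142564837 to 142571614. *Abcc9* was at 29.7, 32.2 and 35.7 CPM in littermates and 51.0, 47.4 and 44.7 CPM in *Nova2-/-* mice. All *Nova2-/-* mice were above the 9 other mice, with a log2 fold change of 0.55 ± 0.10, a 1.47-fold higher level, and an edgeR FDR of 0.0496. *Kcnj8* was at 6.86, 8.23 and 5.30 CPM in littermates and 5.70, 6.92 and 7.25 CPM in *Nova2-/-* mice, with full overlap and a log2 fold change of -0.03 ± 0.20. In *Nova1-/-* cortex neither passed, with log2 fold changes of 0.03 ± 0.091 for *Abcc9* and 0.0013 ± 0.17 for *Kcnj8*.

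*Vtn* was at 22.5, 23.9 and 38.7 CPM in littermates and 55.0, 52.8 and 50.9 CPM in *Nova2-/-* mice, apart, with a log2 fold change of 0.90 ± 0.19 and an edgeR FDR of 0.0714. Wild-type mice 4 to 6 were at 59.2, 54.1 and 63.4 CPM, which overlaps the *Nova2-/-* mice, and *Nova1-/-* mice were at 52.5, 49.3 and 43.6 CPM. Wild-type mice 1 to 3 were thus the low group of the 4. *Notch3*, the receptor that maintains mural cells, was likewise lowest in wild-type mice 1 to 3, at 15.2, 16.6 and 18.1 CPM in wild-type mice 1 to 3, 20.8, 25.5 and 34.3 CPM in *Nova2-/-* mice and 22.2, 24.3 and 30.7 CPM in wild-type mice 4 to 6. Its log2 fold change in *Nova2-/-* cortex was 0.69 ± 0.18 with an edgeR FDR of 0.104.

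*Pdgfrb*, the receptor by which pericytes follow endothelial PDGFB, was at 19.5, 23.1 and 32.2 CPM in littermates and 34.1, 34.4 and 44.5 CPM in *Nova2-/-* mice, with a log2 fold change of 0.60 ± 0.19 and an edgeR FDR of 0.157. *Anpep*, aminopeptidase N, was at 3.35, 1.90 and 5.90 CPM in littermates and 6.14, 7.32 and 6.59 CPM in *Nova2-/-* mice, with a log2 fold change of 0.82 ± 0.34 and an edgeR FDR of 0.236. For both genes the groups were apart, and wild-type mouse 3 was the littermate nearest to the knockouts. *Rgs5*, a regulator of G-protein signalling that marks pericytes, was apart too, with a log2 fold change of 0.21, and *Foxs1* was at 0.35 with 9 to 22 counts per mouse.

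The smooth muscle genes were low in the cortex of all groups. *Tagln*, the actin-binding protein SM22, was at 2.76, 3.61 and 5.70 CPM in littermates and 7.70, 5.88 and 6.41 CPM in *Nova2-/-* mice, with a log2 fold change of 0.72 ± 0.27 and an edgeR FDR of 0.202. Wild-type mice 4 to 6 were at 6.68, 8.65 and 7.62 CPM, which overlaps the *Nova2-/-* mice. *Acta2* and *Myh11*, smooth muscle actin and myosin, had log2 fold changes of 0.93 ± 0.50 and 0.94 ± 0.58 and did not pass. Relative to the mean, their littermate values had the largest SD of all members, at 0.750, 1.78 and 4.39 CPM for *Acta2* and 0.434, 1.42 and 3.39 CPM for *Myh11*.

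Wild-type mouse 3 weighed on many of these comparisons. It was the highest of the 3 littermates for 31 of 43 members, 20 endothelial and 11 mural, and it reached the lowest *Nova2-/-* mouse for 24. The shares of all genes with these orders were not counted. The weight of this mouse was not particular to the members, as edgeR called 166 of all genes with it and 1433 without it. Without it, 19 members passed, 10 endothelial and 9 mural, all higher, against 5.99% of genes called higher and 3.04% lower. They included *Cdh5* with a log2 fold change of 0.99 (edgeR FDR = 0.00927), *Vtn* with 1.19 (edgeR FDR = 3.04e-04) and *Pdgfrb* with 0.83 (edgeR FDR = 0.0120). Without wild-type mouse 1, wild-type mouse 2 or any 1 *Nova2-/-* mouse, 0 members passed edgeR's test, while 10 or 11 were higher and 0 to 2 lower at an unadjusted p below 0.05, against 7.09% to 8.45% and 5.34% to 7.68% of all genes. Without wild-type mouse 2 the log2 fold changes of *Kdr*, *Slc2a1*, *Abcc9* and *Enpep* were 0.73, 0.58, 0.56 and 1.31, with edgeR FDR values of 0.0939, 0.0975, 0.135 and 0.107. The sizes stayed close to those with 3 littermates, and the calls were lost.

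**Figure D4:**
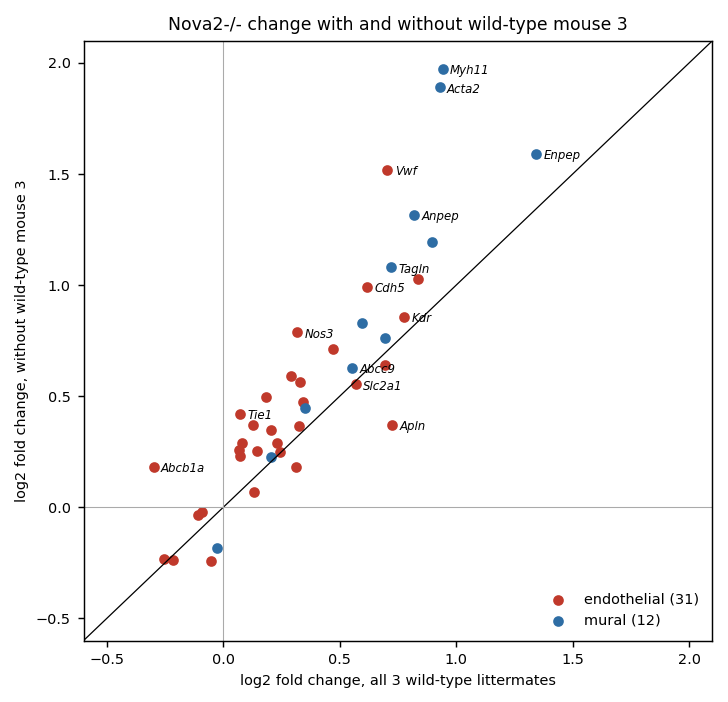
Log2 fold change of each member in *Nova2-/-* cortex with all 3 wild-type littermates (x) and without wild-type mouse 3 (y), endothelial genes in red and mural genes in blue; the line marks equal values. Most members lie above the line, *Myh11*, *Acta2*, *Vwf* and *Anpep* furthest, while *Kdr*, *Slc2a1* and *Abcc9* stay close to it and *Apln* falls below.

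Other references gave the called members different standing. Against wild-type mice 4 to 6 in place of the littermates, 13 members were called higher and 1 lower, against 9.65% and 9.34% of all genes. *Kdr* (log2 fold change 0.53, edgeR FDR = 0.00175), *Slc2a1* (1.03, edgeR FDR = 4.95e-05) and *Abcc9* (0.56, edgeR FDR = 0.00134) were among them, as were *Flt1* (1.02, edgeR FDR = 3.66e-04) and *Apln* (1.77, edgeR FDR = 4.17e-05). *Enpep* was at 0.29 (edgeR FDR = 0.115) and *Vtn* at -0.15 (edgeR FDR = 0.154). In this comparison genotype cannot be told apart from the litter set, and between 7.48% and 11.7% of deposited counts were not whole numbers in mice of the *Nova2* litters against 18.6% to 20.02% in the *Nova1* litters.

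Against wild-type mouse 3 alone, whose spread was assumed to be that of the other groups, 8 members were called higher and 2 lower, against 8.26% and 8.30% of all genes. *Kdr* (0.63, edgeR FDR = 0.00936), *Slc2a1* (0.60, edgeR FDR = 0.0151), *Abcc9* (0.42, edgeR FDR = 0.0391), *Enpep* (0.98, edgeR FDR = 0.00524), *Flt1* (0.80, edgeR FDR = 0.00726), *Apln* (1.78, edgeR FDR = 9.70e-04), *Angpt2* (0.53, edgeR FDR = 0.0279) and *Vtn* (0.45, edgeR FDR = 0.0181) were higher. *Tie1* (-0.44, edgeR FDR = 0.0229) and *Abcb1a* (-0.93, edgeR FDR = 0.00216) were lower. The median over the endothelial members was then -0.045 and that over the mural members 0.23, beside 0.0083 over all genes. Against wild-type mice 4 to 6 these 3 medians were 0.27, 0.32 and 0.0012. The 4 members called against the littermates had log2 fold changes above 0 with each of the 3 references, *Enpep* with an FDR above the limit against wild-type mice 4 to 6. Other members did so too, among them *Flt1* and *Apln*, whose FDR was above the limit against the 3 littermates. The 3 references are not independent tests. Each was compared with the same 3 *Nova2-/-* mice, and wild-type mouse 3 is 1 of the 3 littermates. The 3 *Nova2-/-* mice lay above each of the other 9 mice for 10 members, which were *Kdr*, *Flt1*, *Eng*, *Pecam1*, *Sox17*, *Slc2a1*, *Pdgfrb*, *Abcc9*, *Anpep* and *Enpep*, and below them for none, against 5.19% and 5.62% of all genes.

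Wild-type mice of the 2 litter sets differed in 4 members. Those of the *Nova1* litters were higher in *Vtn* (log2 difference 1.05 ± 0.19, edgeR FDR = 0.0301), *Enpep* (1.05 ± 0.21, edgeR FDR = 0.0388) and *Notch3* (0.63 ± 0.14, edgeR FDR = 0.0483) and lower in *Slc2a1* (-0.46 ± 0.094, edgeR FDR = 0.0405), against 1.80% and 1.23% of all 15918 genes. The 3 that were higher are pericyte genes, and the one that was lower is the glucose transporter. Without wild-type mouse 3, 15 members were called higher and 4 lower, where 3561 of 15986 genes were called in the 2 directions together. Without wild-type mouse 1, 2, 4, 5 or 6, 0 members were called by edgeR. At an unadjusted p below 0.05, 5 or 6 members were then higher and 3 to 6 lower. Without 1 of these 5 mice, 7.6% to 9.5% of all genes were higher and 6.25% to 8.08% lower at that limit.

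Whether the changes in the 2 knockouts differed was tested in a fit of all 12 mice. The difference, with the *Nova1-/-* change subtracted, was positive and passed for 4 members, *Kdr* (1.14 ± 0.15, edgeR FDR = 0.00193), *Enpep* (1.65 ± 0.25, edgeR FDR = 0.00506), *Vtn* (1.17 ± 0.22, edgeR FDR = 0.0167) and *Angpt2* (0.98 ± 0.20, edgeR FDR = 0.0248), and 0 had a negative difference that passed, against 1.23% and 0.598% of 16210 genes. At an unadjusted p below 0.05 there were 14 positive and 1 negative, against 9.08% and 9.12% of all genes. DESeq2 called 6 positive and 0 negative, against 3.47% and 2.35% of all genes. *Kdr*, *Enpep* and *Vtn* had fitted changes of opposite sign in the 2 knockouts with groups apart in both. The differences of *Enpep* and *Vtn* also hold the litter difference given above, since each change is measured from its own wild-type mice. The same holds for *Angpt2*, where wild-type mice of the *Nova1* litters were higher by 0.64 ± 0.18 (edgeR FDR = 0.0875). Against wild-type mice 4 to 6 the *Nova2-/-* change of *Angpt2* was 0.20. For *Kdr* the litter difference was 0.25 ± 0.091 (edgeR FDR = 0.163).

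Summed over the 31 endothelial members, the level was 582, 582 and 777 CPM in wild-type mice 1 to 3, 786, 785 and 831 CPM in *Nova2-/-* mice, 657, 639 and 661 CPM in wild-type mice 4 to 6 and 631, 626 and 612 CPM in *Nova1-/-* mice. The 12 mural members summed to 152, 165 and 205 CPM, 254, 261 and 266 CPM, 227, 219 and 240 CPM, and 213, 216 and 210 CPM in the same order. *Nova2-/-* mice were the highest group and *Nova1-/-* mice were below their littermates in both sums, without overlap. In the *Nova2* litters the mean sum in knockouts was 1.24 times that of littermates for endothelial and 1.5 times for mural members. Members with the highest CPM weigh most in these sums. In the endothelial sum these were *Tjp1*, *Kdr* and *Slc2a1*, with means of 129, 51.8 and 48.0 CPM in littermates. Their means in *Nova2-/-* mice were 162, 88.7 and 71.0 CPM, and *Tjp1* is not specific to endothelium. Wild-type mouse 3 lay near the *Nova2-/-* mice in the endothelial sum and between the groups in the mural sum.

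Some markers of other cells were also higher in *Nova2-/-* cortex. Of 19 meningeal markers, all 19 had a log2 fold change above 0 in *Nova2-/-* cortex, with a median of 1.29, 16 at an unadjusted p below 0.05 and 4 at an FDR below 0.05, among them *Col1a1* and *Dcn*, collagen and decorin of fibroblasts. Of 12 microglia and macrophage markers, 6 had a log2 fold change above 0, with a median of 0.12. At an unadjusted p below 0.05, 4 were higher, *Csf1r*, *Mrc1*, *Pf4* and *Lyve1*, and 0 passed edgeR's FDR (3 by DESeq2). *C1qa*, *C1qb*, *C1qc*, *Aif1*, *P2ry12* and *Trem2* were slightly below 0. The 12 markers summed to 90.8 to 123 CPM in littermates and 138 to 168 CPM in *Nova2-/-* mice, of which *Mrc1* held means of 27.8 and 60.3 CPM. Over all genes, 51.8% had a log2 fold change above 0, 10.1% were higher at an unadjusted p below 0.05 and 0.695% at an FDR below 0.05. The 8 neuronal markers had a median of -0.04. The meningeal sums of *Nova2-/-* mice, 1268 to 1424 CPM, lay within the 1199 to 1522 CPM of wild-type mice 4 to 6. None of the 19 meningeal markers was at 0 in any mouse. The part of the meninges in the members' changes was not tested.

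**Figure D5:**
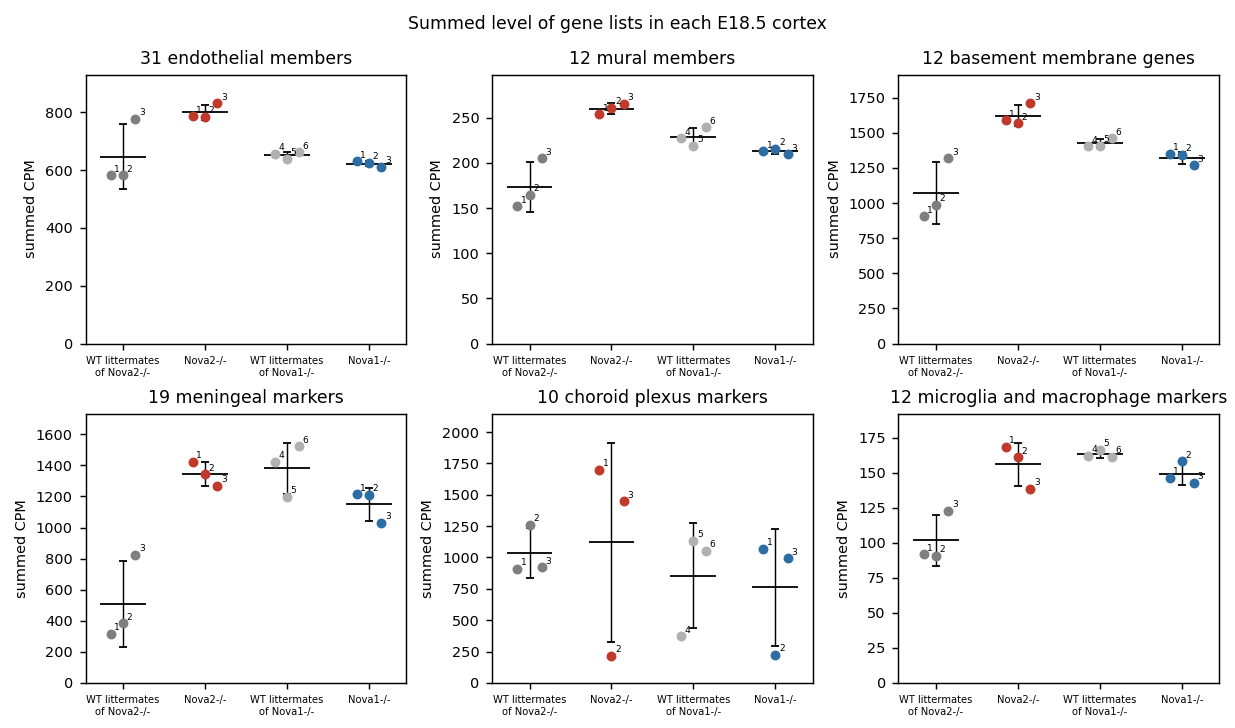
Summed level (CPM) of 6 gene lists in each mouse, with means (lines) and SD (bars, n = 3). Endothelial, mural, basement membrane, meningeal and microglial sums are lowest in wild-type mice 1 and 2, and choroid plexus sums are lowest in *Nova2-/-* mouse 2, *Nova1-/-* mouse 2 and wild-type mouse 4.

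Further vascular genes, listed by function, were read beside the members. The basement membrane, the matrix sheet that endothelium and pericytes share, held the most calls. Of its 12 genes, 11 were higher in *Nova2-/-* cortex at an unadjusted p below 0.05 and 4 passed by FDR, against 10.1% and 0.695% of all genes. The median was 0.64. All 12 were also higher in wild-type mice 4 to 6 than in wild-type mice 1 to 3, with a median of 0.45. Of these, 10 had an unadjusted p below 0.05, against 11.5% of all genes. *Hspg2*, encoding perlecan, rose by 1.07 ± 0.18 (edgeR FDR = 0.0377), the laminin chain genes *Lama4* by 0.76 ± 0.11 (edgeR FDR = 0.0303) and *Lamb1* by 0.48 ± 0.087 (edgeR FDR = 0.0483), and the matrix-binding protein gene *Sparc* by 0.57 ± 0.090 (edgeR FDR = 0.0341), all on the log2 scale. Meningeal fibroblasts make much of the same matrix. Of 20 further barrier, junction and transport genes, 1 passed, *Cav1*, the coat protein of endothelial caveolae, at 34.8, 36.9 and 31.1 CPM in littermates and 54.5, 51.9 and 50.3 CPM in *Nova2-/-* mice. Its groups were apart, and the log2 fold change was 0.61 ± 0.096 with an edgeR FDR of 0.0334.

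Over all genes in *Nova2-/-* cortex, 10.1% were higher and 9.06% lower at an unadjusted p below 0.05, and DESeq2 called 3.42% higher. Of 28 genes of angiogenic signalling, 0 passed by edgeR's FDR in *Nova2-/-* cortex and 5 by DESeq2, and 9 were higher and 0 lower at an unadjusted p below 0.05. Among them was *Vegfa*, a ligand of KDR and FLT1, at 58.6, 57.2 and 25.7 CPM in littermates and 94.3, 84.9 and 102 CPM in *Nova2-/-* mice. The knockout mice were above all others, wild-type mouse 3 was the lowest of the 12, and the log2 fold change was 1.0 ± 0.27 with an edgeR FDR of 0.111. *Vegfa* was named after its values were seen. Other ligand genes of its family on this list, *Vegfb*, *Vegfc*, *Figf* and *Pgf*, had log2 fold changes of -0.04, 0.18, -0.79 and 0.31. None of these had an unadjusted p below 0.05. Of 18 genes of the Wnt pathway that induces the barrier, 5 were higher at an unadjusted p below 0.05, 0 passed in edgeR and 2 in DESeq2. Of 12 tested among 14 other mural genes, 6 were higher at an unadjusted p below 0.05, 0 passed in edgeR and 2 in DESeq2. In *Nova1-/-* cortex 0 genes of these 5 lists passed in edgeR or DESeq2. There, 5 of the 12 basement membrane genes were lower at an unadjusted p below 0.05, against 3.67% of all genes.

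No member appeared among the 1991 alternative splicing events, in 539 gene symbols, that the study lists as NOVA2-dependent. Of the genes in the 5 vascular lists, 1 did, *Efnb2*, which encodes the arterial ligand ephrin-B2. The 539 symbols stand beside 23038 with counts, so few of 43 genes would be listed even at the share of all genes. In the paper, a listed event also had to pass limits on its change and hold a NOVA binding motif within a CLIP cluster. Whether the members had enough reads for their splicing to be scored was not tested. Their absence therefore cannot show whether NOVA2 acts on vessel genes.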

How the data were processed

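RNA-seq libraries came from cortex of 12 mice at E18.5, in 4 groups of 3 taken from the labels. The authors extracted total RNA, depleted ribosomal RNA, sequenced paired ends, aligned to mm10 with OLego and deposited expected counts per gene symbol, not normalized. The counting program and its annotation are not given in the sources used here. The deposited log2 fold changes, FDR values and ΔI (inclusion difference) values of the authors' own comparisons were not used, and of the splicing table, in mm9 coordinates, gene symbols were counted only. Midbrain and hindbrain were not analysed here.

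Expected counts were rounded to whole numbers, TMM-scaled and filtered with filterByExpr, and tested with edgeR 4.0.16 (R 4.3.3), quasi-likelihood with Benjamini-Hochberg adjustment over all genes tested. The 6 mice compared entered each fit, and 12 entered the test of the difference between changes. The limit was an FDR of 0.05 at any fold. The study's further limit, a log2 fold change of 1, was an alternative. Other alternatives were upper-quartile and RLE normalization, other filters, DESeq2 1.42.0, each mouse left out, a replicate block, and all 12 mice in one fit. The 2 other references for *Nova2-/-* were added after the data had been seen. Totals were 16518172 to 31362018 per mouse, which limits genes with few counts most. No 2 columns were identical, and replicate counts differed by 4.56 to 41.7 times counting noise (chi-square per degree of freedom). The tests were checked on simulated counts. Same-numbered mice of the *Nova2* litters were not treated as pairs. The correlations of their deviations were 0.13, 0.048 and 0.22, and those of mice with different numbers ran from -0.23 to 0.15. With 3 mice per group these values cannot settle whether the numbers pair the mice.

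Exon lengths and overlaps came from GENCODE vM1 (NCBIM37), and spans and promoter windows from RefSeq (GRCm38.p6), with Python 3.11.15 and pandas 2.3.3. Figures were drawn with matplotlib 3.10.9. Members and gene lists were chosen with earlier results of these data known. The members called in either knockout, filled up to 14 by smallest p in *Nova2-/-* mice, and the member of each role with the highest level per length are given with values in every mouse. Of pathway lists, genes with an FDR below 0.05 are named, at most 4 of a list. The promoter motifs and other names were chosen after values were seen.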

Additional observations from a re-analysis of the deposited data

Results flagged for a closer look

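For 4 members the change in *Nova2-/-* cortex differed from the change in *Nova1-/-* cortex by a test of the difference itself, edgeR's quasi-likelihood test in the fit of 12 mice. The difference (*Nova2-/-* change minus *Nova1-/-* change, log2) was 1.14 for *Kdr*, 1.65 for *Enpep*, 1.17 for *Vtn* and 0.98 for *Angpt2*. For *Kdr* it was made of 0.78 in *Nova2-/-* and -0.37 in *Nova1-/-* mice. For *Enpep* it was made of 1.34 and -0.32, for *Vtn* of 0.90 and -0.28, and for *Angpt2* of 0.84 and -0.15. *Kdr* and *Enpep* passed in each of the 12 fits that left out 1 mouse, and *Angpt2* and *Vtn* did not pass in all of them. The wild-type levels of *Enpep* and *Vtn* differed between the litter sets, by 1.05 for each on the log2 scale. That of *Angpt2* differed by 0.64, with an edgeR FDR of 0.0875. Groups of 3 are too small for a test of single outlying mice.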

How the results depend on the processing

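The 4 calls in *Nova2-/-* cortex stayed at 3 to 6 with upper-quartile or RLE normalization, no filter, or at least 10 counts in every mouse (42 members tested). The count was 9 with DESeq2 and 9 with all 12 mice in one fit, 1 with the further limit on fold, and 0 to 19 when 1 mouse was left out (19 without wild-type mouse 3, 0 without any of the other 5). Over all genes, edgeR called 166 in the fit of 6 mice, 1334 with all 12 mice and 1433 without wild-type mouse 3. It called 7 to 26 without 1 of the other 5 mice, and DESeq2 called 846. A replicate block gave 4 calls, with *Pdgfrb* in and *Abcc9* out. Not every mouse correlated best with its own number, and whether the numbers pair the mice is not known. Against wild-type mice of the *Nova1* litters the count was 14. The median of the mural members ran from 0.49 to 0.95 when 1 mouse was left out, was 0.32 against the wild-type mice of the *Nova1* litters and 0.23 against wild-type mouse 3, where the endothelial median was -0.045. The endothelial median was 0.16 without wild-type mouse 2, 0.36 without wild-type mouse 3 and 0.27 against the wild-type mice of the *Nova1* litters. In *Nova1-/-* cortex the count was 1 with DESeq2 and 0 otherwise. There the endothelial median was -0.040 without wild-type mouse 6 and -0.045 without *Nova1-/-* mouse 3, and the mural median -0.075 without wild-type mouse 5. The count for the difference between knockouts was 2 to 17 when 1 mouse was left out, and 17 without wild-type mouse 3. Over all genes that difference was called for 296 in the fit of 12 mice and 1005 without wild-type mouse 3. Between wild-type groups the count of members was 8 with DESeq2, 8 with all 12 mice, 2 with the limit on fold and 0 to 19 when 1 mouse was left out (19 without wild-type mouse 3, 0 without any other). Over all genes, the wild-type groups differed in 483 in the fit of 6 mice and 1333 with DESeq2. The calls were 1590 with all 12 mice and 3561 without wild-type mouse 3. Among the members with values in every mouse, signs turned for *Vtn* (-0.15) and *Tagln* (-0.19) against the wild-type mice of the *Nova1* litters, for *Ets1* (-0.044) and *Cldn5* (-0.25) against wild-type mouse 3, and for *Cldn5* without wild-type mouse 1 (-0.043, against 0.26 without wild-type mouse 3). Over all 43 members, signs turned for 9 against the wild-type mice of the *Nova1* litters and 14 against wild-type mouse 3. They turned for 1 (*Abcb1a*) without wild-type mouse 3, and for 1 to 5 without 1 of the other mice. Of 371 values of single members under alternatives, 286 kept direction and side of the limit. Fewer mice entered the leave-one-out fits; the cause of the other shifts was not tested. *Foxs1*, *Acta2* and *Myh11* are limited by counts.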
